A study of Mus musculus with 12 samples.

Results

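The Hippo pathway was followed through 10 genes, 5 regulators (Yap1, Wwtr1, Tead1, Lats1 and Lats2) and 5 targets (Ccn1, Ccn2, Ankrd1, Amotl2 and Ajuba), in mouse pancreatic cancer cells exposed to cisplatin (Cis). The genes were matched by symbol and were picked for their known roles, with earlier results of these data known. They are 10 of 15803 transcripts with a read in at least 1 library, and each of them was listed in all 12 libraries and was tested in every comparison. Footprint coverage and RNA were measured in KPC cells, a line from the pancreatic tumour of an engineered mouse that carried, among its alleles, Trp53 LSL-R172H and the Cre driver Pdx1-Cre. Cre expressed from the Pdx1 promoter switches on mutant Trp53 in cells of the pancreatic lineage, and all groups share these alleles. Cells received PBS, or 20 µM Cis for 6 h or for 21 h, and every group had 2 ribosome profiling libraries and 2 RNA-seq libraries. The controls are labelled as untreated, the study's methods call them PBS, and whether they were taken at 6 h or 21 h is not labelled. A single line was used, the labels do not say whether the 2 libraries of a group came from separate cultures, and p-values therefore measure only the spread between these libraries. The same PBS libraries are the control for both times.

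In ribosome profiling, mRNA fragments covered by ribosomes are protected from RNase and sequenced, so that footprints count ribosomes on a coding sequence, while RNA-seq of the lysates counts the mRNA itself. Values are RPKM, reads divided by the total of the library and by a length, which was that of the coding sequence in ribosome profiling and that of the whole transcript in RNA-seq. All levels below are RPKM scaled within each assay by factors of 0.9591 to 1.095, and all changes are fitted differences of log2(RPKM + 0.5), which understate the change of genes with low values. Footprint libraries held 3375480 to 5204127 reads and RNA-seq libraries 1985344 to 2901692, of which 51.8% to 56.6% fell in Lars2, Tmem38b and Mettl26. The 10 genes had 11 to 352 footprints and 16 to 250 RNA reads per library, the lowest of each being Lats2 footprints at 21 h and Ccn2 RNA at 6 h. Of the ductal keratins, Krt8 was at 3214 to 4949 footprint RPKM as deposited, Krt19 at 1608 to 3082, Krt18 at 1570 to 1856 and Krt7 at only 9.19 to 21.9. The epithelial marker Cdh1 was at 88.3 to 147, while Epcam was near 0, at 0.287 to 1.83. Of the mesenchymal markers, vimentin (Vim) was at 2867 to 3862, Cdh2 at 7.58 to 31.7 and Zeb1 at 2.56 to 9.17. Of 9 markers of acinar, blood, endothelial and fibroblast cells, 6 were listed, with a summed footprint RPKM of 2.57 to 3.87 with PBS, 3.57 to 5.15 at 6 h and 9.29 to 11.5 at 21 h, and a summed RNA RPKM of 0.432 to 3.03. Their part in the results below was not tested. Ptprc, Pecam1 and Lyz2 had no read in any RNA library.

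The pathway restrains growth by keeping a pair of coactivators, YAP (Yap1) and TAZ (Wwtr1), out of the nucleus. The kinases MST1 and MST2 activate LATS1 and LATS2, which phosphorylate YAP and TAZ so that they are held in the cytoplasm or degraded. Unphosphorylated YAP and TAZ enter the nucleus and bind TEAD factors, which recognise DNA but need a coactivator to drive transcription. Cell shape, junctions, the actin cytoskeleton and stress feed into this switch, and YAP is widely studied in pancreatic cancer. Ccn1 and Ccn2 encode secreted matricellular proteins, Ankrd1 a nuclear ankyrin repeat protein, Amotl2 an angiomotin that holds YAP at junctions, and Ajuba a LIM protein that binds LATS kinases. Amotl2, Ajuba and Lats2 thus act as brakes or adaptors in the pathway. The regulators carry the Ensembl identifiers ENSMUSG00000053110 (Yap1), ENSMUSG00000027803 (Wwtr1), ENSMUSG00000055320 (Tead1), ENSMUSG00000040021 (Lats1) and ENSMUSG00000021959 (Lats2). The targets carry ENSMUSG00000028195 (Ccn1), ENSMUSG00000019997 (Ccn2), ENSMUSG00000024803 (Ankrd1), ENSMUSG00000032531 (Amotl2) and ENSMUSG00000022178 (Ajuba).

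Promoters are shown because TEAD factors bind the hexamer GGAATG, which reads CATTCC when the opposite strand is printed. Windows from 250 bases before to 50 bases after an annotated start were taken from RefSeq on GRCm38.p6 for 8 of the 10 genes, matched by symbol; the table has no entry for Tead1 or Ccn2. The hexamer occurred on either strand in 7 of these 8 genes, against 14.7% of all 32851 windows and 16.6% of the 27025 genes in the table. It was not found in the window of Lats1. The AP-1 heptamer TGANTCA was searched on both strands and cannot overlap the hexamer in full. It occurred in 0 of the 8 genes, against 7.81% of all windows and 8.97% of the genes in the table, so 0 of 8 is near that share. A match in letters is a description and no measure of binding. The windows of 4 targets and of Yap1 follow, 5′ to 3′ on the strand of the gene, with the hexamer in capitals. They lie at chr3:145649936-145650235 (minus strand) for Ccn1, chr9:102717554-102717853 (plus) for Amotl2, chr19:36119795-36120094 (minus) for Ankrd1, chr14:54577612-54577911 (minus) for Ajuba and chr9:8004547-8004846 (minus) for Yap1.
Ccn1: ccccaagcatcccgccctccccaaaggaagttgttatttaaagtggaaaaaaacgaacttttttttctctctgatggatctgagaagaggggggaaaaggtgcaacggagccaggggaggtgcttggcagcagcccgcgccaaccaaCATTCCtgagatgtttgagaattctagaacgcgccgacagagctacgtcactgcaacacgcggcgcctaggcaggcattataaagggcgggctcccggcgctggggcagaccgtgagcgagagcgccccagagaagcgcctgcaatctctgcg
Amotl2: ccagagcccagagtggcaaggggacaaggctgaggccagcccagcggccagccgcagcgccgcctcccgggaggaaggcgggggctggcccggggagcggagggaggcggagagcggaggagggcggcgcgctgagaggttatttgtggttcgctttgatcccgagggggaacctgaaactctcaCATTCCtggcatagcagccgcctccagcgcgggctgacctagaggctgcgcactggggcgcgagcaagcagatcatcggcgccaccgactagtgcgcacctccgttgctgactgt
Ankrd1: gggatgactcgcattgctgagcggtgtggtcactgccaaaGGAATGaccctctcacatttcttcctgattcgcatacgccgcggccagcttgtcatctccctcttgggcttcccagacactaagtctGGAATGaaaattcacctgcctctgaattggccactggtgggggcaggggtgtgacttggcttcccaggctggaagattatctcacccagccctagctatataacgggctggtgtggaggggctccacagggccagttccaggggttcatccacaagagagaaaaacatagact
Ajuba: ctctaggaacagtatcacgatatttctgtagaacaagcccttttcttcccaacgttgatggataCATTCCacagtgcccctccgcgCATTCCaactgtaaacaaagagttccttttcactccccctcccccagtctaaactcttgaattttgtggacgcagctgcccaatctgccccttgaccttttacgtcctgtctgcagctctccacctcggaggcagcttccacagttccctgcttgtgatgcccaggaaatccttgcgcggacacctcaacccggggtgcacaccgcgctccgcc
Yap1: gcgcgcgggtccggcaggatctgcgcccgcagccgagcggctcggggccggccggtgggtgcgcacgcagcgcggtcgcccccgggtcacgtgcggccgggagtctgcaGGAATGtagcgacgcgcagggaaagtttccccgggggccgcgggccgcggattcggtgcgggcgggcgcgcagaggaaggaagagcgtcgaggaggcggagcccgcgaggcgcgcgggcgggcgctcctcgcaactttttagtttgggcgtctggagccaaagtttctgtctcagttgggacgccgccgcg

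The first base of the hexamer lay 103 bases before the start in Ccn1, at offset -103, and at offset -65 in Amotl2. Ankrd1 held it at offsets -210 and -123, Ajuba at -186 and -164, and Yap1 at -141. Wwtr1 has 2 annotated starts close together, whose windows hold the same hexamer at -136 and -170, and Lats2 held it at offset 4, inside the transcript, in 1 of 2 windows.

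With PBS, footprints on the targets Ccn2 and Ccn1 were the most abundant of the 10 and those on Lats2 the least. Mean footprint RPKM was 46.6 ± 0.197 (SD, n = 2, as throughout) for Ccn2, 42.1 ± 7.60 for Ccn1, 32.4 ± 3.90 for Wwtr1, 31.5 ± 1.15 for Yap1 and 28.4 ± 1.34 for Ankrd1. Tead1 followed at 16.8 ± 5.14, Ajuba at 12.3 ± 0.740, Amotl2 at 10.7 ± 3.23, Lats1 at 10.2 ± 0.505 and Lats2 at 1.86 ± 0.133. In this order the libraries of Ccn2 and Ccn1 overlapped, as did those of Wwtr1 and Yap1, of Ajuba and Amotl2, and of Amotl2 and Lats1. In RNA the coactivators led instead, with Wwtr1 at 17.6 ± 1.57 RPKM and Yap1 at 13.0 ± 1.38, then Ankrd1 at 8.83 ± 0.634, Ccn2 at 7.72 ± 0.135 and Ccn1 at 6.29 ± 1.77. Lats1 (5.99 ± 0.0881), Tead1 (5.08 ± 0.0720), Amotl2 (4.46 ± 1.20), Ajuba (4.36 ± 0.954) and Lats2 (3.30 ± 0.778) were lower. Ccn1 and Lats1 RNA overlapped, as did Tead1 with Amotl2, Amotl2 with Ajuba, and Ajuba with Lats2.

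**Figure D1:**
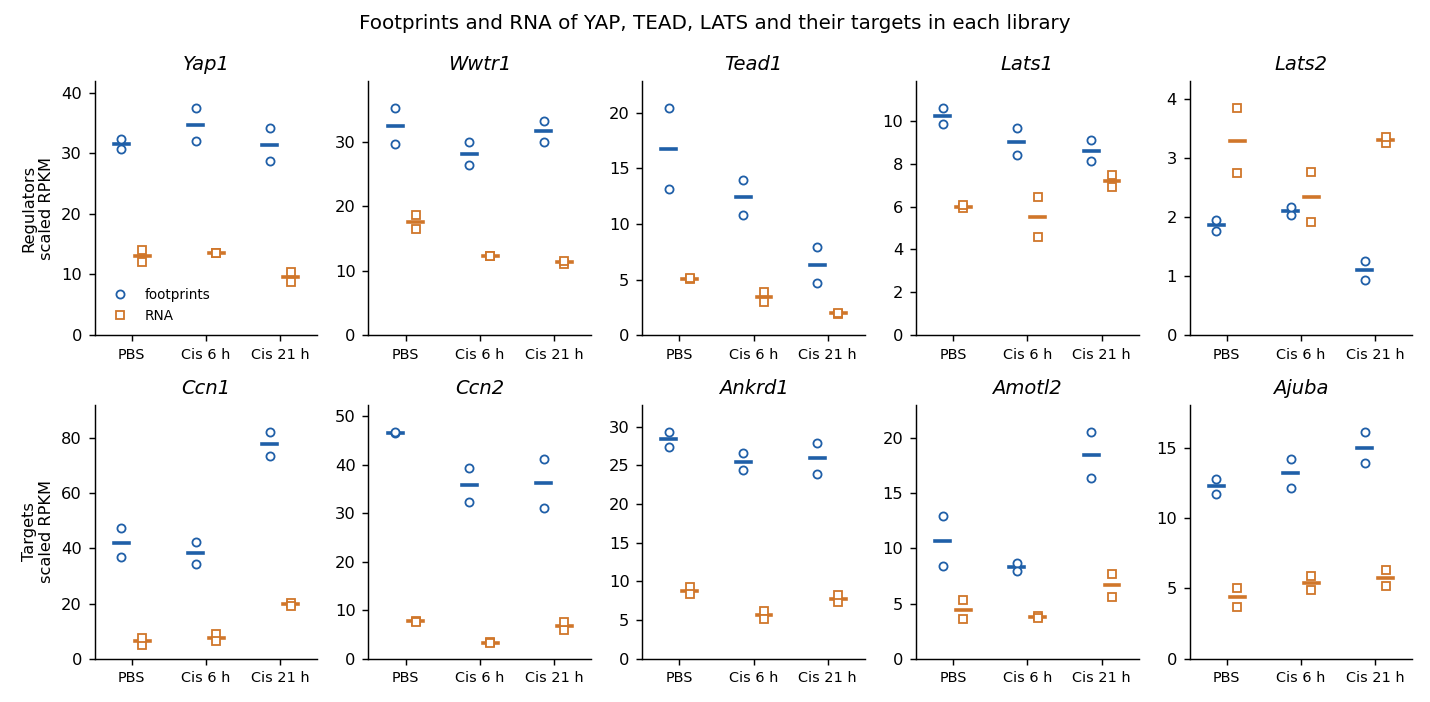
Scaled RPKM (vertical axis, linear, from 0) of each regulator (top row) and target (bottom row) with PBS and after 6 h and 21 h of Cis (horizontal axis), with a point per library and a bar at the mean of 2 libraries, circles for footprints and squares for RNA. Tead1 is lower at 21 h than with PBS in both assays, and Ccn1 is higher in both, with footprint RPKM of 73.5 and 82.2 at 21 h against 36.8 and 47.5 with PBS.

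After 6 h of Cis, no regulator or target passed the test in footprints or in RNA. In footprints 0 of 10 genes were called, where limma (Benjamini-Hochberg adjusted p under 0.05) called 1.05% of all 10383 transcripts tested higher and 0.992% lower, and 2217 had an unadjusted p under 0.05. In RNA 0 of 10 genes were called, and 0% of 9443 transcripts were called higher and 0% lower, although 1086 had an unadjusted p under 0.05. Limma's voom on the recovered reads called 229 transcripts in RNA, among them Ccn2 and Wwtr1 as lower. In footprints it called 1276 transcripts and none of the 10 genes. Throughout, less RNA per cell and fewer cells of a kind cannot be told apart in such bulk libraries.

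Ccn2 had the largest difference among the 10 genes at 6 h. Its RNA was 7.81 and 7.62 RPKM with PBS and 3.50 and 3.19 RPKM at 6 h, so that the groups did not overlap. The fitted change was -1.10 on the log2 scale (SE 0.21, limma adjusted p = 0.209, unadjusted p = 0.00044). At 21 h its RNA was 5.84 and 7.65 RPKM, overlapping PBS, and the rise from 6 h to 21 h passed the test (0.90, SE 0.21, limma adjusted p = 0.0198). That call was lost when replicate 1 or 2 at 6 h or replicate 2 at 21 h was left out, with adjusted p of 0.0530, 0.0764 and 0.121.

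Footprints on Ccn2 were 46.4 and 46.7 RPKM with PBS, 39.2 and 32.2 at 6 h, and 41.2 and 31.0 at 21 h, all treated libraries lying below both PBS libraries. The fitted changes were -0.38 at 6 h (SE 0.16, limma adjusted p = 0.210) and -0.38 at 21 h (SE 0.16, adjusted p = 0.0906), neither past the threshold. At 21 h Ccn2 was called lower by voom (adjusted p = 0.0402) and when replicate 1 at 21 h was left out (-0.57, adjusted p = 0.0251).

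Ankrd1, Wwtr1 and Tead1 also had RNA below PBS in both libraries at 6 h. Ankrd1 RNA was 9.27 and 8.38 RPKM with PBS, 6.24 and 5.12 at 6 h, and 7.34 and 8.22 at 21 h, a change of -0.60 at 6 h (SE 0.19, limma adjusted p = 0.309) and of -0.17 at 21 h (SE 0.19, adjusted p = 0.554). From 6 h to 21 h the change of Ankrd1 RNA was 0.43 (SE 0.19, limma adjusted p = 0.162). Footprints on Ankrd1 were 29.3 and 27.4 RPKM with PBS, 26.6 and 24.4 at 6 h, and 23.9 and 27.9 at 21 h, and the change at 21 h was -0.13 (95% interval -0.44 to 0.17). Ankrd1, a stress protein of heart and muscle, was the target with the smallest footprint difference at 21 h.

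After 21 h of Cis, Tead1 fell in both assays, Ccn1 rose in both, Amotl2 rose in footprints and Wwtr1 fell in RNA. In footprints 2 of 10 genes were called higher, where 18.9% of all transcripts were, and 1 of 10 lower, where 20.2% were. In RNA 1 of 10 was called higher, against 11.6% of transcripts, and 2 of 10 lower, against 12.2%. The share of the 10 genes called was therefore near the share of all genes in both assays. The median footprint change was -0.24 for the 5 regulators, none of them above 0, and 0.28 for the 5 targets, 3 of them above 0, against 0.006 for all transcripts tested. In RNA the medians were -0.41 for the regulators, 0.36 for the targets and 0.02 for all. The targets' RNA median was 0.16 without PBS replicate 2. It was 0.096 over the 4 targets left when a mean RPKM of at least 5 was asked for.

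**Figure D2:**
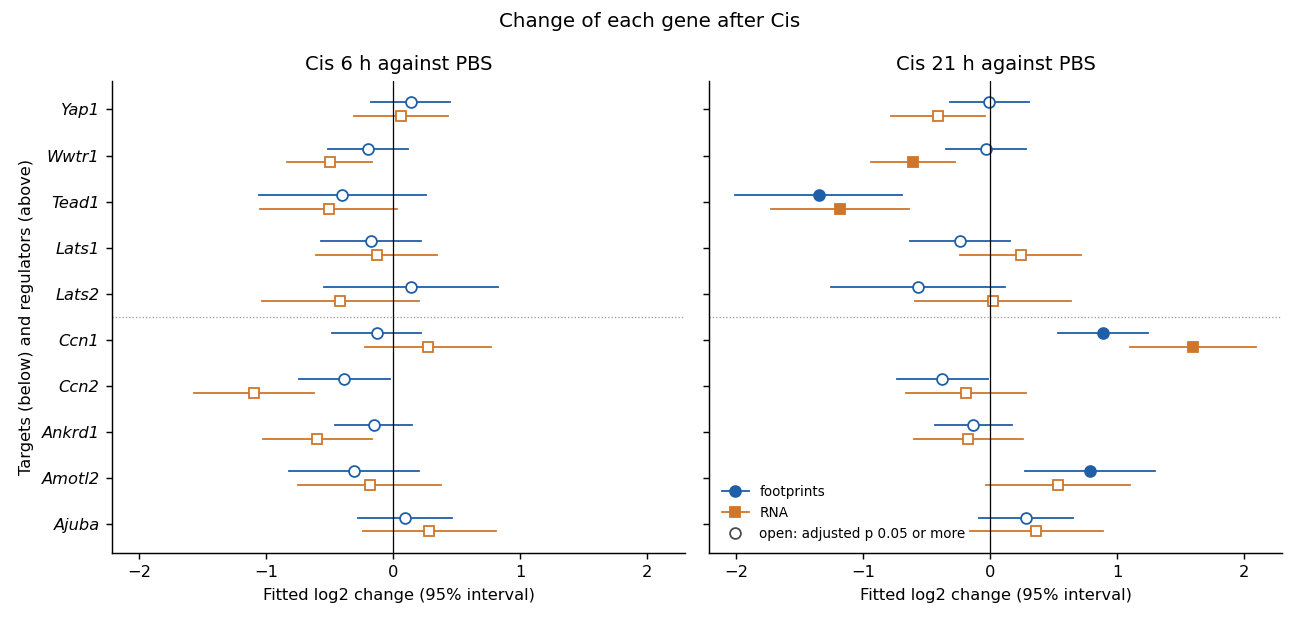
Fitted log2 change against PBS (horizontal axis) with its 95% interval for each regulator (above the dotted line) and target (below it), after 6 h (left) and 21 h (right) of Cis, circles for footprints and squares for RNA, filled where the limma adjusted p was under 0.05. At 6 h all symbols are open. At 21 h Tead1 (-1.35 and -1.18) and Ccn1 (0.89 and 1.60) are filled in both assays.

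Tead1, the TEAD factor of this set, showed the largest fall. Its footprints were 13.1 and 20.4 RPKM with PBS, 14.0 and 10.8 at 6 h, and 4.67 and 7.96 at 21 h. Its RNA was 5.03 and 5.13 RPKM with PBS, 3.01 and 3.88 at 6 h, and 1.90 and 2.02 at 21 h. At 21 h both libraries lay below both PBS libraries in each assay, and at 6 h this was so for RNA only. The changes at 21 h were -1.35 in footprints (SE 0.29, limma adjusted p = 0.00642) and -1.18 in RNA (SE 0.24, adjusted p = 0.00758). At 6 h they were -0.40 (SE 0.29, limma adjusted p = 0.463) and -0.51 (SE 0.24, adjusted p = 0.455). The footprint call was lost without PBS replicate 2, where the change was -1.05. The RNA call was lost without PBS replicate 1 or 2, where the change was -1.20 or -1.17. Such fits leave 1 PBS library, and fewer of all transcripts pass in them.

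Among the other TEAD factors, Tead2 and Tead3 were tested and Tead4 is not analysed here. Tead2 footprints were 13.3 and 13.1 RPKM with PBS and 7.36 and 14.6 at 21 h, with a change of -0.33 (SE 0.27, limma adjusted p = 0.36). Tead2 RNA changed by -0.05 (SE 0.16). Tead3 was low in both assays, and its changes at 21 h were 0.20 in footprints (SE 0.38) and 0.30 in RNA (SE 0.37), neither past the threshold. The difference between Tead1 and these factors was not tested.

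Footprints on both coactivators at 21 h overlapped those with PBS, while their RNA lay below PBS in both libraries. Wwtr1 RNA was 16.4 and 18.7 RPKM with PBS, 12.3 and 12.2 at 6 h, and 11.1 and 11.6 at 21 h, with no overlap between PBS and either time. The fall at 21 h was -0.61 (SE 0.15, limma adjusted p = 0.0168), and the difference at 6 h was -0.50 (SE 0.15, adjusted p = 0.302). Leaving out any of the 4 RNA libraries of PBS and 21 h took the adjusted p at 21 h to between 0.0511 and 0.115. Footprints on Wwtr1 were 35.2 and 29.7 RPKM with PBS, 29.9 and 26.3 at 6 h, and 30.0 and 33.2 at 21 h, and their change at 21 h was -0.03 (95% interval -0.35 to 0.28).

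Yap1 RNA was 14.0 and 12.0 RPKM with PBS, 13.5 and 13.6 at 6 h, and 10.5 and 8.80 at 21 h. Both libraries at 21 h lay below PBS, and the change of -0.41 did not pass the test (SE 0.17, limma adjusted p = 0.0989). Voom called it lower, with an adjusted p of 0.0420. Footprints on Yap1 were 30.6 and 32.3 RPKM with PBS, 37.4 and 32.0 at 6 h, and 34.1 and 28.7 at 21 h, and their change at 21 h was -0.01 (95% interval -0.32 to 0.30). The transcripts whose 4 changes against PBS lay nearest to those of Yap1, out of 9295, were Rnf31, Zmat5 and Neurl1b, at Euclidean distances of 0.097, 0.11 and 0.12 on the log2 scale.

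The LATS kinases did not pass the test in either assay. Lats1 footprints were 10.6 and 9.88 RPKM with PBS, 8.40 and 9.67 at 6 h, and 9.09 and 8.15 at 21 h. Its RNA was 5.93 and 6.06 RPKM with PBS, 4.59 and 6.43 at 6 h, and 6.91 and 7.45 at 21 h. The changes of Lats1 at 21 h had opposite signs, -0.24 in footprints (95% interval -0.63 to 0.16) and 0.24 in RNA (-0.23 to 0.72).

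Lats2, both a kinase and a known target of YAP, was sparse. Its footprints were 1.77 and 1.96 RPKM with PBS, 2.04 and 2.17 at 6 h, and 0.93 and 1.26 at 21 h, the last from 11 and 14 reads. Its RNA was 2.75 and 3.85 RPKM with PBS, 1.92 and 2.77 at 6 h, and 3.25 and 3.37 at 21 h. The footprint libraries at 21 h lay below all others, with a change of -0.57 (SE 0.30, limma adjusted p = 0.164), called lower only when the trend was left out of the moderation (adjusted p = 0.0294). The change in RNA was 0.02 (95% interval -0.60 to 0.64).

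Ccn1, which encodes a matricellular ligand of integrins, rose most among the targets. Its RNA was 5.04 and 7.54 RPKM with PBS, 8.84 and 6.46 at 6 h, and 20.2 and 19.3 at 21 h. Its footprints were 36.8 and 47.5 RPKM with PBS, 34.4 and 42.3 at 6 h, and 82.2 and 73.5 at 21 h. PBS and 6 h overlapped in both assays, and the libraries at 21 h stood above all others. The change at 21 h was 1.60 in RNA (SE 0.22, 3.03-fold, limma adjusted p = 0.00123) and 0.89 in footprints (SE 0.15, 1.85-fold, adjusted p = 0.0025). The transcripts nearest to Ccn1 in their 4 changes were the chemokine Cxcl1, then Spdl1 and Zkscan5, at distances of 0.21, 0.25 and 0.27.

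Amotl2 rose in footprints at 21 h. Its footprints were 8.38 and 12.9 RPKM with PBS, 8.70 and 7.94 at 6 h, and 16.4 and 20.5 at 21 h, the last above all others. Its RNA was 5.31 and 3.61 RPKM with PBS, 3.86 and 3.73 at 6 h, and 7.71 and 5.59 at 21 h, and there too both libraries at 21 h were the highest. The change at 21 h was 0.79 in footprints (SE 0.22, limma adjusted p = 0.0229) and 0.53 in RNA (SE 0.25, adjusted p = 0.154). Without PBS replicate 1 the footprint change was 0.48 (adjusted p = 0.146) and without replicate 2 at 21 h it was 0.64 (adjusted p = 0.110). With no filter on low values its adjusted p was 0.0520.

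Ajuba did not pass the test. Its footprints were 11.8 and 12.8 RPKM with PBS, 12.2 and 14.2 at 6 h, and 13.9 and 16.1 at 21 h. Its RNA was 5.04 and 3.69 RPKM with PBS, 5.88 and 4.90 at 6 h, and 6.31 and 5.14 at 21 h. The changes at 21 h were 0.28 in footprints (95% interval -0.09 to 0.65) and 0.36 in RNA (-0.16 to 0.89). Ajuba and Amotl2 footprints at 21 h both lay above PBS in each library.

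Set against 6 h rather than PBS, Ccn1 rose in both assays at 21 h, Amotl2 rose in footprints and Ccn2 rose in RNA. The fitted change from 6 h to 21 h was above 0 for 5 of 5 targets in both assays, with a median of 0.18 in footprints and 0.72 in RNA, against -0.004 and 0.01 for all transcripts, and 2 of the 5 targets passed the test in each assay. In footprints Ccn2, Ankrd1 and Ajuba overlapped their 6 h libraries. In footprints 2 of 10 genes were called higher (15.0% of all transcripts) and 1 lower (15.7%). These were Ccn1 (1.02, SE 0.15), Amotl2 (1.10, SE 0.22) and Tead1 (-0.95, SE 0.29). In RNA 2 of 10 were called higher (7.53% of all) and 0 of 10 lower (8.21% of all), and these were Ccn1 (1.33, SE 0.22) and Ccn2. Amotl2 RNA changed by 0.72 (SE 0.25, limma adjusted p = 0.0831). The call of Tead1 footprints between the times (limma adjusted p = 0.0362) was lost without replicate 1 or 2 at 6 h or replicate 1 at 21 h, with changes of -0.78, -1.13 and -0.60. That call was also lost with no filter on low values and without the trend. These comparisons share libraries with those against PBS.

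The translation efficiency (TE), the ratio of footprints to RNA, was highest for the 2 CCN genes and lowest for Lats2. With PBS the mean ratio over same-numbered libraries was 6.79 ± 0.701 for Ccn1, 6.04 ± 0.131 for Ccn2, 3.29 ± 0.965 for Tead1 and 3.22 ± 0.0794 for Ankrd1. Ajuba (2.90 ± 0.804), Amotl2 (2.58 ± 1.42), Yap1 (2.44 ± 0.348), Wwtr1 (1.86 ± 0.389) and Lats1 (1.71 ± 0.109) followed, and Lats2 was at 0.577 ± 0.0959. The ratio compares RPKM over coding sequence with RPKM over transcript, so its absolute size has no unit of ribosomes. Library numbers are not known to mark pairs, so single ratios and their SD depend on this matching. The interaction test below does not pair libraries.

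None of the 10 genes passed the interaction test of TE at either time. At 6 h 0 of 10 were called, as were 0% of 9295 transcripts higher and 0% lower, with 710 at an unadjusted p under 0.05 and 14 called by voom. At 21 h 0 of 10 were called by either tool. Limma called 0.258% of the 9295 transcripts higher and 0.151% lower, with 1183 at an unadjusted p under 0.05, and voom called 151. The differences with an unadjusted p under 0.05 were those of Ccn2 at 6 h and of Wwtr1 and Ccn1 at 21 h. The Ccn2 ratio was 5.94 and 6.13 with PBS, 11.2 and 10.1 at 6 h, and 7.05 and 4.05 at 21 h, a change of 0.71 at 6 h (SE 0.25, limma adjusted p = 0.504). The Ccn1 ratio was 7.29 and 6.30 with PBS, 3.89 and 6.54 at 6 h, and 4.07 and 3.82 at 21 h, a change of -0.71 at 21 h (SE 0.29, limma adjusted p = 0.343). The Wwtr1 ratio was 2.14 and 1.59 with PBS and 2.70 and 2.87 at 21 h, a change of 0.57 (SE 0.20, limma adjusted p = 0.266).

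Yap1 had ratios of 2.19 and 2.69 with PBS and 3.26 in both same-numbered pairs at 21 h. That closeness rests on the matching by number, as footprints (34.1 and 28.7 RPKM) and RNA (10.5 and 8.80) each differed between libraries. The TE change of Yap1 was 0.41 (95% interval -0.06 to 0.87). The ratios of both LATS kinases were lower at 21 h than with PBS, with changes of -0.48 for Lats1 (95% interval -1.06 to 0.11) and -0.59 for Lats2 (-1.39 to 0.21). None of these 3 passed the test.

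**Figure D3:**
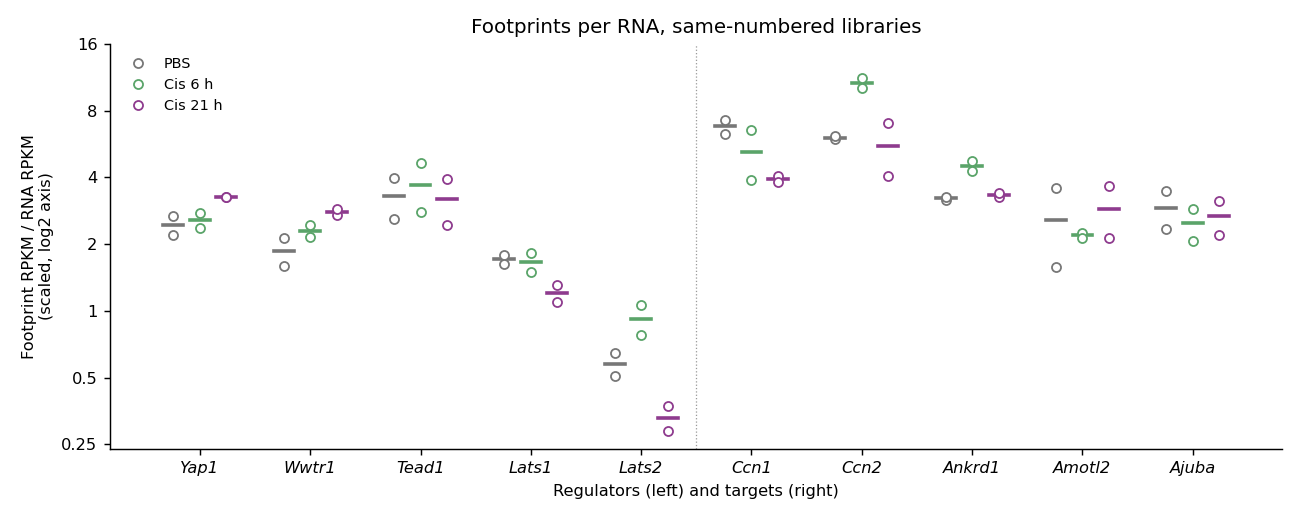
Ratio of footprint RPKM to RNA RPKM (vertical axis, log2 scale) of same-numbered libraries for each regulator (left of the dotted line) and target (right), with a point per library pair and a bar at the mean, with PBS and after 6 h and 21 h of Cis. The Ccn2 ratio is 10.1 and 11.2 at 6 h, above the other groups, and the Ccn1 ratio is 3.82 and 4.07 at 21 h, below PBS. Libraries were matched by number only, which is not known to mark pairs.

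The wider pathway was read from lists of genes chosen for their known roles. The list of the Hippo kinase cascade held the MST, LATS, TAOK and MAP4K kinases, the MOB cofactors, scaffolds and upstream membrane proteins. Of its 16 tested genes, 7 fell in footprints at 21 h, where 20.2% of all transcripts did, and 1 rose, where 18.9% did. The median change was -0.49, against 0.006 for all transcripts. In RNA 5 of 15 fell, against 12.2% of all, and 0 rose, against 11.6%, with a median of -0.11. Fewer genes of the list fell in footprints without PBS replicate 2 or either library at 21 h. The same held in RNA without either PBS library or replicate 1 at 21 h. These fits leave 1 library in a group, and fewer of all transcripts pass in them. Stk3, which encodes MST2, fell most. Its footprints were 38.1 and 39.9 RPKM with PBS, 23.1 and 18.6 at 6 h, and 6.23 and 5.66 at 21 h. The change was -2.62 at 21 h (SE 0.16, limma adjusted p = 1.46e-05) and -0.90 at 6 h (SE 0.16, adjusted p = 0.0343), and in RNA at 21 h -2.29 (SE 0.37, adjusted p = 0.0024). The call at 6 h was lost without any of the 4 footprint libraries of PBS and 6 h, with no filter on low values, with a replicate block and without the trend. Its paralogue Stk4 (MST1) changed by -0.04 in footprints (SE 0.16) and by -0.09 in RNA (SE 0.16) at 21 h.

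Further genes of the cascade that fell in footprints at 21 h included the kinases Taok3 (-1.60, SE 0.25) and Map4k4 (-1.08, SE 0.16) and the protocadherin Dchs1 (-2.43, SE 0.75). Dchs1 footprints were 1.30 and 10.7 RPKM with PBS, 0.99 and 2.72 at 6 h, and 0.35 and 0.31 at 21 h. Its RNA was 0 in both PBS libraries and at most 0.0977 RPKM in any library. Dchs1 lost its call without PBS replicate 2 and without either library at 21 h. Mob1a, a LATS cofactor, rose by 0.49 (SE 0.12), a call lost without PBS replicate 2 or replicate 2 at 21 h. In RNA Taok3 (-1.37, SE 0.34), the scaffold Wwc1, also called KIBRA (-1.26, SE 0.17), and Frmd6 (-0.98, SE 0.25) fell, and the calls of Taok3 and Frmd6 were lost without either PBS library or replicate 1 at 21 h. At 6 h limma called 1 gene of this list in footprints, Stk3, and 0 in RNA, where voom called 4 and 2 lower. Of all transcripts limma called 1.05% higher and 0.992% lower in footprints and 0% in RNA. Voom called 1276 of 10383 in footprints and 229 of 9443 in RNA.

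Among junctional and nuclear partners of YAP and LATS, 3 of 9 tested genes fell in footprints at 21 h and 1, Amotl2, rose. Of all transcripts 20.2% fell and 18.9% rose. The median of the partners was -0.09. Among those that fell were Ptpn14, a phosphatase that retains YAP in the cytoplasm (-1.15, SE 0.26), and the tight junction protein Tjp1 (-0.72, SE 0.11). Ptpn14 lost its call without PBS replicate 1. In RNA 0 of 9 were called, against 11.6% of all transcripts higher and 12.2% lower, with a median of -0.15.

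In a 22-gene list of YAP and TAZ targets, which holds Ccn1, Ccn2, Ankrd1, Amotl2 and Lats2, the genes split in direction at 21 h. In footprints 4 of 18 tested rose and 7 fell, against 18.9% and 20.2% of all transcripts, with a median of -0.56. In RNA 2 of 17 rose and 5 fell, against 11.6% and 12.2%, with a median of -0.26. Without PBS replicate 2, 2 rose and 2 fell in RNA. The genes that rose were Gadd45a, Nuak2, Ccn1 and Amotl2. Gadd45a, a growth arrest and DNA damage gene that is also a p53 target, went from 13.1 and 15.5 footprint RPKM with PBS to 95.5 and 91.0 at 21 h (2.67, SE 0.14, limma adjusted p = 8.33e-06). Its RNA rose by 2.26 (SE 0.34). Nuak2, a kinase related to AMPK, rose in footprints by 1.21 (SE 0.27), a call lost without PBS replicate 2.

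The largest falls of that list were in Asap1, an ARF GTPase-activating protein, in Crim1, in the RAC activator Dock5 and in Myof, a membrane repair protein. Asap1 footprints were 35.6 and 30.4 RPKM with PBS, 20.2 and 17.7 at 6 h, and 5.56 and 6.87 at 21 h, a change of -2.32 at 21 h (SE 0.17, limma adjusted p = 3.9e-05). Crim1 fell by 1.68 on the log2 scale, Dock5 by 1.30 and Myof by 1.21. In RNA Asap1 (-2.18, SE 0.19), Dock5 (-1.30, SE 0.32), Myof (-1.01, SE 0.13) and Crim1 (-0.94, SE 0.30) fell as well. The RNA call of Dock5 was lost without either PBS library or replicate 2 at 21 h, and that of Crim1 without any of the RNA libraries but PBS replicate 1. At 6 h 0 of 18 genes were called in footprints and 0 of 17 in RNA, where voom called 5 and 4 lower. Of all transcripts limma called 1.05% higher and 0.992% lower in footprints and 0% in RNA. Voom called 1276 of 10383 in footprints and 229 of 9443 in RNA.

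**Figure D4:**
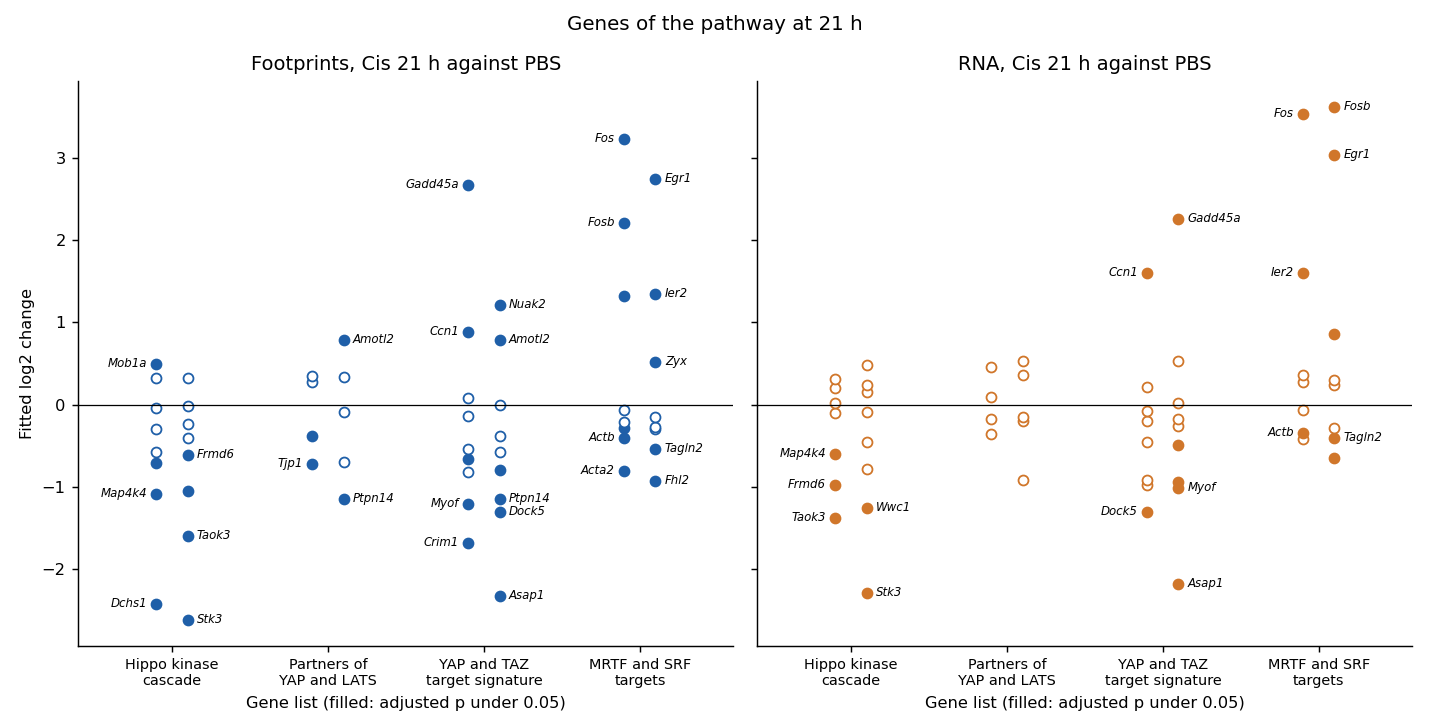
Fitted log2 change at 21 h of Cis against PBS (vertical axis) of each tested gene of 4 lists (horizontal axis), for footprints (left) and RNA (right), filled where the limma adjusted p was under 0.05, with names beside the filled genes named in the text where there is room. Filled points lie on both sides of 0 in the target signature, from Asap1 (-2.32) to Gadd45a (2.67) in footprints, and mostly below 0 in the kinase cascade.

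The actin-sensing coactivator MRTF and its partner SRF, which share several targets with YAP, gave a further list for comparison. At 21 h 6 of 16 of these genes rose in footprints and 5 fell, against 18.9% and 20.2% of all transcripts, with a median of -0.18. In RNA 5 of 15 rose and 3 fell, against 11.6% and 12.2%, with a median of 0.27. Those that rose most were the immediate early genes Fos (3.23 in footprints, 3.53 in RNA), Egr1 (2.75 and 3.04), Fosb (2.21 and 3.62) and Ier2 (1.34 and 1.60). Those that fell most in footprints were Fhl2 (-0.93), a LIM protein, and Acta2 (-0.81), Tagln2 (-0.54) and Actb (-0.40), which encode actins and an actin-binding protein. Zyx, a focal adhesion protein named here after its values were seen, rose by 0.52 (SE 0.12), a call lost without PBS replicate 2. Fhl2 and Acta2 lost their calls without either PBS library or replicate 2 at 21 h. At 6 h limma called 1 gene in footprints, Fos (1.31, SE 0.24, adjusted p = 0.0376), and 0 in RNA. The Fos call was lost without PBS replicate 1 or either library at 6 h, with no filter on low values, with a replicate block and without the trend. Voom called 2 genes of the list higher and 2 lower in footprints at 6 h, and 1276 of all 10383 transcripts. Of all transcripts limma called 1.05% higher and 0.992% lower there, and 0% in RNA.

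In the CCN family, Ccn3 was tested in footprints only, at 1.08 and 2.06 RPKM with PBS and 2.00 and 3.18 at 21 h, and did not pass the test (0.59, SE 0.37). Of the markers of cell state, 4 of 6 epithelial genes fell in footprints at 21 h, against 20.2% of all transcripts, and 0 rose, with Krt7 (-1.13), Krt19 (-0.83), Cdh1 (-0.62) and Krt8 (-0.59). In RNA 3 of 5 fell, against 12.2% of all, and Krt18 rose (0.26). All 3 mesenchymal genes, Cdh2 (-2.00), Zeb1 (-1.17) and Vim (-0.35), fell in footprints and in RNA. Of the markers of other cells only the acinar elastase Cela1 had enough reads to be tested, and it was higher in footprints at 21 h (1.18, SE 0.30) and was not called in RNA (-0.92, SE 0.56).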

How the data were processed

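The values are RPKM per library, deposited by the authors for a representative transcript of each gene, without pooling. The submitters' processing notes name cutadapt, STAR and GRCm39, and counter and versions are not given in the sources used here. Footprints of 25 to 35 nt were divided by coding length and RNA-seq reads by transcript length. Multiplied by length, all values were whole multiples of a single read (tolerance 0.02), which gave reads and depth, and 95% intervals in the text are those of the fits. Values were scaled by median-of-ratios within each assay, transcripts with a mean of at least 1 were kept, and the log2 of RPKM plus 0.5 entered linear models in limma (version 3.58.1, R version 4.3.3, trended eBayes), and the 3 groups of an assay shared 1 fit. TE was the interaction of assay and treatment over 12 libraries. P-values are two-sided and were adjusted over all transcripts by the Benjamini-Hochberg method, with 0.05 as the threshold. An exact permutation test of 2 against 2 libraries cannot go below p = 0.333.

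The genes and lists were chosen with earlier results of these data known. All 10 genes are named, with up to 4 genes per list and direction that changed most at 21 h, and the 3 transcripts nearest to Yap1 and to Ccn1. Each result was recomputed with pseudocounts of 0.1 and 1, without the filter, with a minimum mean of 5, with deposited or quantile-normalised RPKM, no trend, limma voom on recovered reads, RNA recomputed without 3 abundant transcripts, only the groups compared, a replicate block, other thresholds and each library left out. TE per replicate number, and the alternatives for list genes, were added after seeing the data. An allele of the line and a gene of a list are not reported here. The tests were checked on simulated reads. Many of the changes put into them were not called, more in RNA than in footprints. A gene that was not called may therefore have changed. Promoter windows are from RefSeq on GRCm38.p6. Python 3.11.15 with pandas 2.3.3, numpy 2.4.6 and matplotlib 3.10.9 handled files and plots.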

Additional observations from a re-analysis of the deposited data

Results flagged for a closer look

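The test of 21 h against 6 h, in which the shared PBS libraries cancel, called a difference for 4 of the 10 genes. Of all transcripts it called 15.0% higher and 15.7% lower in footprints, and 7.53% and 8.21% in RNA. In footprints the difference between the effects was 1.02 for Ccn1, 1.10 for Amotl2 and -0.95 for Tead1 on the log2 scale. In RNA it was 1.33 for Ccn1 and 0.90 for Ccn2. The calls of Tead1 and Ccn2 were lost when some single libraries were left out. That of Tead1 was also lost with no filter on low values and without the trend. Ccn1 stood near PBS at 6 h and above it at 21 h in both assays, while Ccn2 RNA stood below PBS in both libraries at 6 h and overlapped it at 21 h. Groups of 2 libraries are too small to look for a single library apart from the others.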

How the results depend on the processing

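Depth limits Lats2 most, with 11 to 30 footprints per library. Over 39 changes of the 10 genes and 683 refits, 649 kept their direction and their side of the threshold, 18 lost a call, 9 gained one and 7 changed sign, all 7 in changes not past the threshold. Most of the 39 changes were not called to begin with, so the 649 do not measure how stable the calls were. Tead1 footprints at 21 h against 6 h lost their call in 5 of 16 refits and Wwtr1 RNA at 21 h in 4 of 17, while Ccn1 lost no call. Without scaling, the footprint changes at 21 h of Yap1 and Wwtr1 were 0.0277 and 0.00174. With libraries left out they ranged from -0.12 to 0.13 for Yap1 and from -0.16 to 0.0837 for Wwtr1, and Lats2 RNA at 21 h from -0.20 to 0.23. Voom called 2 of the 10 genes in RNA at 6 h, 5 in RNA at 21 h and 5 in RNA at 21 h against 6 h. Of all 9443 transcripts it called 229, 3004 and 2012 in these comparisons. An adjusted p under 0.1 gave 5 of the 10 genes in that last comparison, and 2197 of the 9443 transcripts. An absolute change above 1 in addition left 1 in footprints at 21 h and 1 in RNA at 21 h against 6 h. It left 1350 of 10383 and 566 of 9443 transcripts there. Some calls of the 10 genes in RNA at 21 h and in RNA at 21 h against 6 h were lost when a library was left out. Fewer of all transcripts passed in these fits too. The median RNA change of the targets at 21 h was then 0.16 to 0.56. With a mean RPKM of at least 5 it was 0.096, over the 4 targets left. Same-numbered libraries did not deviate together (correlations of -0.0143 to 0.0215 over transcripts), so the numbers were not taken as pairs. With a replicate block, 3 of the 10 genes were called in footprints and 3 in RNA at 21 h, as without it. Of all transcripts, 3869 of 10383 and 2182 of 9443 were called with the block. Among list genes, the calls of Stk3 and Fos in footprints at 6 h and of Crim1 in RNA at 21 h were lost with it. The cause of these shifts was not tested.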
